A study of Capra hircus with 2 samples.

Results

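BTG3 and BBX, nuclear genes with a part in the control of cell growth, were described across single ovarian granulosa cells of Ji'ning grey goats. They were taken by their symbols from the deposited table of genes by cells and make up 2 of the 154 complete gene rows analysed here. Granulosa cells are the somatic cells that surround and feed the oocyte in the follicle, and their number grows by division as the follicle matures. The table holds 1 library of granulosa cells from goats with high fertility, bearing more than 3 kids per birth (HGC), and 1 from goats with low fertility, bearing fewer than 2 (LGC). Both are 10x Genomics 3' libraries of freshly dissociated cells, in which transcripts were counted by unique molecular identifiers (UMIs). The labels do not give the age of the goats, the stage of the follicles or how many goats were pooled.

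The high fertility library held 7106 cells with a median of 7214.5 UMIs, and the low fertility library 3345 cells with a median of 11080 UMIs. The study states about 12000 cells, beside the 10451 in the table, and 27 barcodes occurred in both libraries. None of the 7 granulosa markers looked for, among them FSHR and CYP19A1, is among the rows analysed here, so the labelled cell type could not be checked against its markers. Markers of other cells were present for leukocytes (SAMSN1, CD96 and CD80, 3 of 5), for stroma (CCDC80 and COL8A1, 2 of 5) and for surface epithelium (UPK1B, 1 of 3). With 1 library per group no test between the groups was possible, and all intervals below are exact 95% intervals of counting error within a library unless stated otherwise. A difference between these libraries cannot be told apart from a difference between goats, dissections or preparations.

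BTG3 belongs to the BTG/TOB family of anti-proliferative proteins, which bind subunits of the CCR4-NOT deadenylase; in human cells BTG3 is a target of p53 and binds the cell cycle factor E2F1. BBX is a transcription factor with an HMG box, a DNA-binding fold that bends DNA, and has been linked in cultured cells to the passage from G1 into S phase. In the follicle, granulosa cells leave the cell cycle when they begin to luteinise.

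Both genes were among the more abundant of the 154 rows, which held 0.971% of the HGC and 1.09% of the LGC UMIs. Of the 117 symbols among these rows, 110 were found in the RefSeq gene table of assembly ARS1.2, all on chromosome 1. Ranks, medians and shares of rows are therefore within this set. BTG3 ranked 12th of the 154 rows in HGC and 17th in LGC by UMIs per 1000000 of the library (CPM), and BBX ranked 9th in both. BTG3 stood at 79.1 CPM (76.9 to 81.3) on 5042 UMIs in HGC and at 60.3 CPM (58.1 to 62.6) on 2755 UMIs in LGC. BBX stood at 123 CPM (120 to 126) on 7855 UMIs in HGC and at 95.9 CPM (93.0 to 98.7) on 4378 UMIs in LGC. Each was therefore higher in HGC, beyond counting error.

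The ratio of HGC over LGC was 1.31 (1.25 to 1.37) for BTG3 and 1.29 (1.24 to 1.33) for BBX. Their intervals lay above 1, as they did for 65.9% of the 44 rows with at least 10 CPM, among which the ratios of the members ranked 9th and 14th. Neither member reached 1.5-fold, which 15.9% of those rows did in one direction or the other. The median ratio of the 44 rows was 1.14, and 34 of the rows were above 1. CCDC80 and COL8A1, the stroma markers, were also higher in HGC, with 37.0 and 9.30 CPM there and 12.6 and 3.83 CPM in LGC. Without all cells holding a UMI of a stroma or leukocyte marker the ratio was 1.24 (1.17 to 1.31) for BTG3 and 1.26 (1.21 to 1.31) for BBX. This removal takes deep cells more often and keeps cells in which no marker UMI was caught. Whether cell composition bears on the ratios was not tested. The balance between the members differed little between the libraries. BTG3 made up 39.1% (38.3 to 39.9) of the UMIs of the pair in HGC and 38.6% (37.5 to 39.8) in LGC. The BTG3 ratio divided by the BBX ratio was 1.02, with an interval of 0.961 to 1.08 by the normal approximation on the log scale.

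The share of cells with a UMI did not follow the CPM, and the 2 libraries differ in depth. BTG3 had a UMI in 39.6% (38.4 to 40.7) of the HGC cells and in 43.4% (41.7 to 45.1) of the LGC cells, an order opposite to that of the CPM. BBX had a UMI in 56.6% (55.4 to 57.8) and 57.5% (55.8 to 59.2) of the HGC and LGC cells. After each cell was reduced to 2000 UMIs, the expected share for BTG3 was 14% of 6897 HGC cells and 11.1% of 3213 LGC cells. For BBX it was 22.3% and 17.3% of the same HGC and LGC cells. At equal depth both genes were thus detected more often in HGC. No cell class known to lack either gene could be named in these rows, which leaves the contribution of free RNA to these shares unmeasured.

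On the deposited natural log scale the mean of BTG3 was 0.401 ± 0.561 (SD over 7106 cells) in HGC and 0.345 ± 0.471 (SD over 3345 cells) in LGC. BBX averaged 0.627 ± 0.637 in HGC and 0.525 ± 0.563 in LGC. In each case the spread between cells of 1 library was several times the difference between the libraries. These SDs are over cells and hold no replicate error.

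The UMIs were spread unevenly over the cells. In HGC 1674 cells had 1 BTG3 UMI, 613 had 2 and 525 had 3 or more, with a highest count of 15. In LGC 830 cells had 1, 318 had 2 and 304 had 3 or more, with a highest count of 36 in a cell of 33050 UMIs. If BTG3 had been the same share of every cell, 45.6% of the HGC and 48.6% of the LGC cells would have held a UMI, more than the 39.6% and 43.4% observed. Cells with 5 or more BTG3 UMIs numbered 128 in HGC and 76 in LGC, where the same calculation gives 59.2 and 49.9. BTG3 was thus more concentrated in some cells than depth alone gives, in both libraries.

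BBX showed the same kind of unevenness. Cells with 5 or more UMIs numbered 225 in HGC and 198 in LGC, where an equal share in every cell gives 188 and 147. The highest counts were 14 in an HGC cell and 24 in an LGC cell of 9864 UMIs, which held 1 BTG3 UMI. The dispersion, the squared deviation from the depth expectation relative to that expectation, was 1.62 for BTG3 and 1.45 for BBX in HGC, where the median of 39 rows with at least 500 UMIs in each library was 1.31. In LGC it was 1.84 for BTG3 and 2.26 for BBX, where the median was 1.65. Among the 39 rows BTG3 ranked 13th in HGC and 16th in LGC, and BBX 16th in HGC and 9th in LGC, so neither was extreme.

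BTG3 varied little with the depth of the cell in HGC, whereas BBX declined there. From the shallowest to the deepest of 8 depth classes (bounds at 2500, 5000, 7500, 10000, 15000, 20000 and 30000 UMIs), BTG3 stood at 87.0, 85.6, 76.8, 78.1, 80.1, 81.4, 87.6 and 64.8 CPM in HGC. Only the class of 30000 or more UMIs lay clearly below the others. BBX stood at 175, 149, 139, 118, 124, 115, 113 and 93.9 CPM in the same classes. Its level was therefore nearly 2-fold different between the ends of the depth range.

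In LGC both genes were lowest or near their lowest in cells under 2500 UMIs. BTG3 stood at 36.0 CPM (21 to 57.6) in cells under 2500 UMIs, on 17 UMIs, and at 63.3, 71.4, 69.9, 60.7, 63.5, 55.4 and 55.2 CPM in the following classes. BBX stood at 78.3, 92.4, 123, 141, 103, 97.0, 83.4 and 71.9 CPM, highest in cells of 7500 to 10000 UMIs. The fall above that class was common to both libraries for BBX, while the low level under 2500 UMIs was found in LGC.

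**Figure D1:**
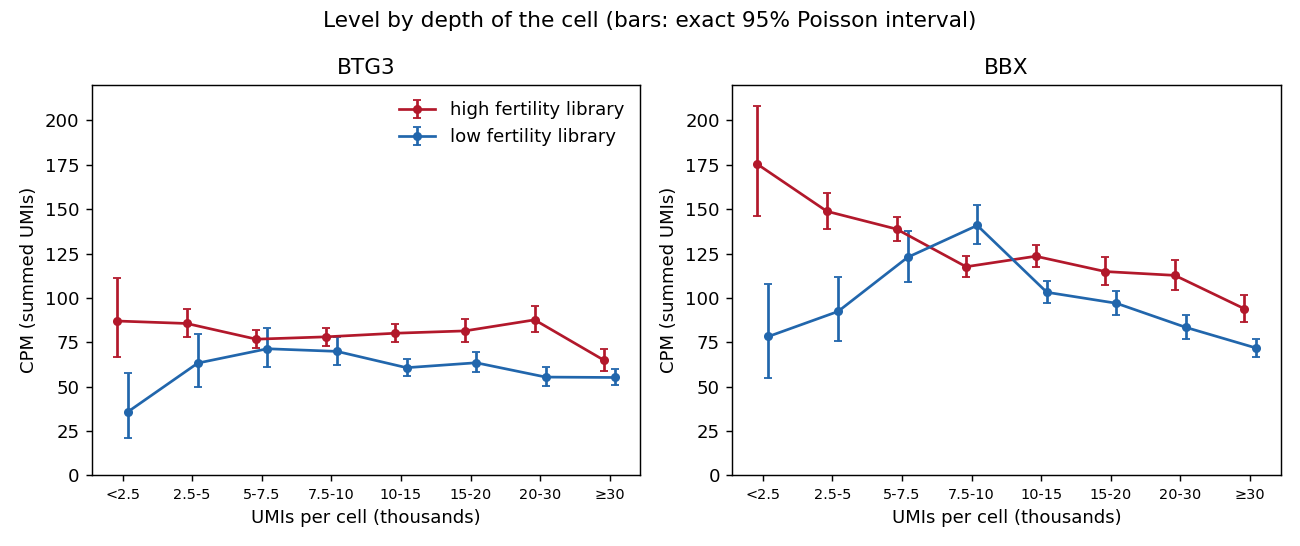
CPM of BTG3 and BBX (vertical axes) in 8 classes of UMIs per cell (horizontal axes), for HGC (red) and LGC (blue), with exact 95% Poisson intervals. BTG3 is higher in HGC in 8 of 8 classes and BBX in 7, with the order of the libraries turned for BBX at 7500 to 10000 UMIs.

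Cells of at least 15000 UMIs were set against cells under 5000 UMIs. For BBX in HGC the deep cells stood at 108 CPM and the shallow cells at 152 CPM, a ratio of 0.708 (0.656 to 0.765) over 839 deep and 1812 shallow cells. The interval of this ratio lay below 1 for 36.8% of 87 rows with at least 100 UMIs, and the median of the rows was 0.835. BTG3 stood at 78.2 CPM in the deep and 85.8 CPM in the shallow cells, a ratio of 0.912 (0.827 to 1.01). In LGC the ratio was 1.04 (0.843 to 1.3) for BTG3 and 0.937 (0.791 to 1.12) for BBX, over 984 deep and 564 shallow cells. There the interval lay below 1 for 23.1% of 78 rows, with a median of 0.875.

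Cells with a UMI of any leukocyte or stroma marker made up 11.9% of the cells under 2500 UMIs and 49.7% of those with 30000 or more in HGC, and 13.4% and 36.0% of the same classes in LGC. A deeper cell is more likely to hold such a UMI at an equal level, so this share follows depth and does not measure the markers' level. The leukocyte marker SAMSN1 stood at 69.3 CPM under 2500 UMIs and 0.963 CPM at 30000 or more in HGC. In LGC it stood at 55.0 and 3.45 CPM. CCDC80 stood at 24.5 and 47.0 CPM in the same classes in HGC, and at 19.0 and 10.4 CPM in LGC. COL8A1 stood at 6.80 and 22.1 CPM in HGC, and at 2.12 and 7.27 CPM in LGC. The share of cells with a SAMSN1 UMI was 6.99% and 3.36% of these classes in HGC, and 8.13% and 7.56% in LGC. Values between these end classes were not always intermediate. The SAMSN1 share reached 11.1% at 15000 to 20000 UMIs in HGC and 19.4% at 20000 to 30000 in LGC. CCDC80 reached 74.6 CPM at 20000 to 30000 UMIs in HGC. The deep over shallow ratio in HGC was also taken without all cells holding a UMI of any leukocyte or stroma marker. It was then 0.745 (0.663 to 0.839) for BTG3 and 0.65 (0.595 to 0.710) for BBX, both with intervals below 1. This removal took a larger share of the deep than of the shallow cells. In the removed HGC cells with CCDC80 or COL8A1, BTG3 was 1.51 and 1.97 times the level expected at matched depth. The lower BTG3 ratio is therefore no measure of how BTG3 varies with depth. With cells of the top depth quartile of LGC over those of the bottom quartile, the BBX ratio was 0.766 (0.683 to 0.861), an interval below 1 as well.

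The difference between the libraries was not the same in every depth class. Under 2500 UMIs the ratio of HGC over LGC was 2.42 (1.40 to 4.41) for BTG3 and 2.24 (1.54 to 3.32) for BBX. At 5000 to 7500 UMIs it was 1.08 (0.912 to 1.27) for BTG3 and 1.13 (0.997 to 1.28) for BBX, not distinguishable from 1 at this depth. At 7500 to 10000 UMIs BBX stood at 118 CPM in HGC and 141 CPM in LGC, a ratio of 0.835 (0.760 to 0.917), while BTG3 had a ratio of 1.12 (0.983 to 1.27). At 20000 to 30000 UMIs the ratios were 1.58 (1.39 to 1.80) for BTG3 and 1.35 (1.21 to 1.51) for BBX. BTG3 was higher in HGC in 8 of 8 classes and BBX in 7; 38.6% of the 44 rows were higher there in at least 7 classes.

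In HGC the BTG3 share of the pair tended to rise with depth, whereas in LGC it had no steady order across the depth classes. BTG3 made up 33.2% (26.6 to 40.3) of the joint UMIs in HGC cells under 2500 UMIs. It made up 36.5% (33.9 to 39.2) at 2500 to 5000 and 35.6% (33.8 to 37.5) at 5000 to 7500. It then made up 39.9%, 39.3% and 41.5% in the classes up to 20000 UMIs. It made up 43.7% (41.0 to 46.5) at 20000 to 30000 UMIs and 40.8% (37.8 to 44.0) at 30000 or more. In LGC it made up 31.5% (19.5 to 45.6) under 2500 UMIs, 40.7% (33.5 to 48.2) at 2500 to 5000, 33.2% (30.2 to 36.2) at 7500 to 10000 and 43.4% (40.8 to 46.1) at 30000 or more. The intervals of the shallowest and the deepest class overlapped in both libraries, but the shallowest class rested on few UMIs. It held 64 BTG3 and 129 BBX UMIs in HGC, and 17 and 37 in LGC. In HGC the intervals at 2500 to 5000 and at 5000 to 7500 UMIs lay below that at 20000 to 30000. In LGC the interval at 7500 to 10000 UMIs lay below that at 30000 or more.

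Whether the members rise together was examined within cells. In HGC 1801 cells held UMIs of both, 1011 of BTG3 alone, 2221 of BBX alone and 2073 of neither. In LGC 1009 cells held both, 443 BTG3 alone, 915 BBX alone and 978 neither. Depth separates these classes: cells with both had a median of 10157 UMIs in HGC and 15265 UMIs in LGC, and cells with neither 5541 and 6231 UMIs. Within 20 depth bins of equal cell number, independent detection gives 24.7% of the HGC and 28.9% of the LGC cells with both, against 25.3% and 30.2% observed. The excess of double-positive cells was therefore 1.02-fold in HGC and 1.04-fold in LGC.

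UMI levels gave a slightly larger excess. In each bin, the UMIs of one gene in cells with the other were set over those expected from cells without it. BBX was 1.14 times as high (1.11 to 1.18) in the 2812 HGC cells with BTG3 as in those without, and 1.14 times (1.10 to 1.19) in the 1452 LGC cells with BTG3. BTG3 was 1.16 times as high (1.12 to 1.20) in HGC cells with BBX and 1.29 times (1.23 to 1.34) in LGC cells with BBX. These intervals take the expected UMIs as fixed and are therefore too narrow. In the deepest bin few cells lack BBX, 34 in HGC and 9 in LGC, and they set 25.1% and 24.1% of the expected BTG3 UMIs. Without cells above 15000 UMIs the excess of BTG3 in LGC cells with BBX was 1.17.

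These values were set beside those of the other rows. The median over the other rows with at least 100 UMIs was 1.11 in cells with BTG3 in both libraries, and 1.09 and 1.08 in cells with BBX in HGC and LGC. Among these rows BBX ranked 36th of 86 in HGC and 32nd of 77 in LGC cells with BTG3, and BTG3 31st of 86 in HGC and 19th of 77 in LGC cells with BBX. BTG3 in LGC cells with BBX was 1.19 times the median row and above the upper quartile of the rows, 1.24, whereas the other 3 values were 1.03 to 1.07 times their median.

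The excess grew with the number of UMIs. Relative to all cells of the same depth, BBX stood at 0.954 in HGC cells without BTG3, at 0.992 with 1 BTG3 UMI, at 1.07 with 2, at 1.13 with 3 to 4 and at 1.16 (1.04 to 1.29) with 5 or more. In LGC the same steps were 0.936, 1.03, 1.02, 1.10 and 1.15 (1.01 to 1.3). BTG3 likewise stood at 0.913 in HGC cells without BBX and at 1.19 (1.09 to 1.31) in those with 5 or more BBX UMIs, and at 0.851 and 1.14 (1.03 to 1.27) in the same LGC cells. In both directions the cells rich in one member were thus slightly rich in the other. These steps were not set beside those of other rows, so they do not show a trend particular to the pair. Without all cells holding a UMI of a stroma or leukocyte marker, BBX in cells with BTG3 was 1.07 in HGC and 1.09 in LGC. BTG3 in cells with BBX was then 1.06 in HGC and 1.15 in LGC.

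**Figure D2:**
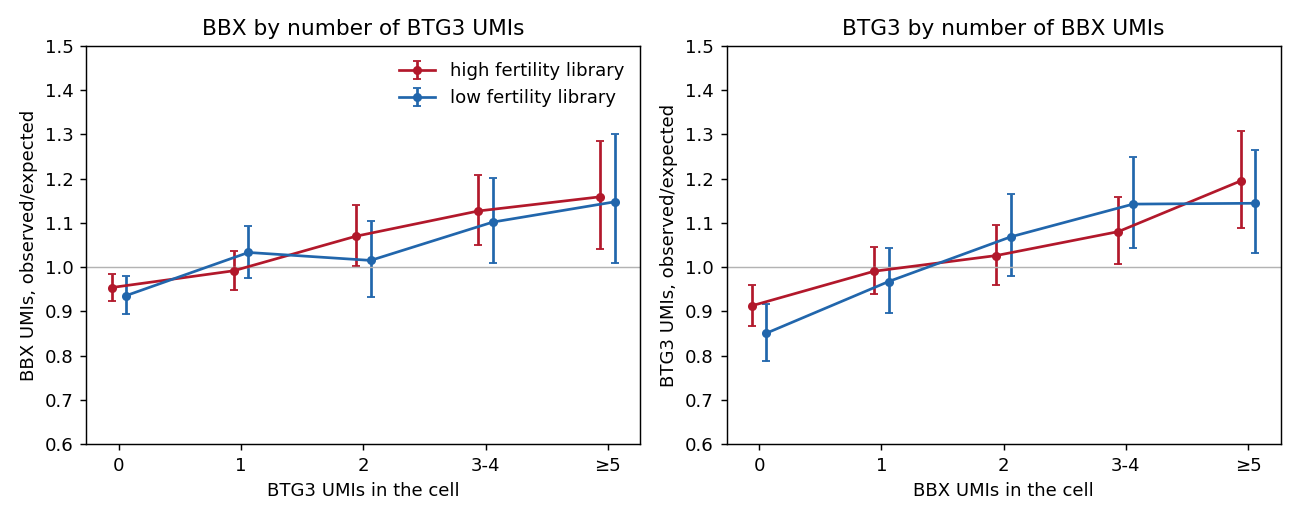
Level of each member relative to all cells of the same depth (vertical axes, observed over expected UMIs, axis from 0.6) by the number of UMIs of the other in the cell (horizontal axes), for HGC (red) and LGC (blue), with exact 95% Poisson intervals of the observed UMIs. Cells with none of the other gene lie below 1 and cells with 5 or more lie between 1.14 and 1.19 in both libraries.

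A collagen chain had the largest excess in cells with BTG3 among the rows compared in HGC. Of 76 rows with at least 100 UMIs in each library, 6 were at least 1.5-fold higher in cells with BTG3 in both libraries: COL8A1, FILIP1L, DCBLD2, ADAMTS1, CD200 and ENSCHIG00000022648. Within a library, 16.3% of the rows reached 1.5-fold in HGC and 9.09% in LGC. These 6 were singled out after their values were seen. COL8A1, a chain of type VIII collagen, was 6.01 times as high (5.50 to 6.56) in HGC and 2.28 times (1.90 to 2.71) in LGC cells with BTG3. FILIP1L, a filamin A interacting protein, was 3.31 times as high in HGC and 2.25 times in LGC cells with BTG3. CD200, a surface glycoprotein of the immunoglobulin superfamily, was 2.02 times as high in HGC and 2.48 times in LGC cells.

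Some of these sizes differed without the deep cells. Without cells above 15000 UMIs, COL8A1 was 3.63 times (3.09 to 4.24) as high in HGC and 1.65 times (1.11 to 2.36) in LGC cells with BTG3. ADAMTS1, a protease that acts in the matrix around ovulation, was 2.2 and 1.93 times as high in HGC and LGC cells with BTG3, and 1.78 and 4.39 times without those deep cells. All of these remained above 1. In LGC, ADAMTS1 had 292 UMIs in 113 cells and a dispersion of 7.51, so its LGC values may rest on few cells. COL8A1 and CCDC80 are also the 2 stroma markers among the rows. Without all cells holding a UMI of a stroma or leukocyte marker, FILIP1L was 2.94 times as high in HGC and 1.67 times in LGC cells with BTG3. DCBLD2 was then 1.64 times as high in HGC and 1.39 times in LGC, against 2.64 and 1.67 times with all cells. ADAMTS1 was then 1.70 and 2.91 times, CD200 1.91 and 1.84 times, and ENSCHIG00000022648 1.41 and 1.83 times as high in HGC and LGC. All of these rows stayed above 1, while DCBLD2 in LGC and ENSCHIG00000022648 in HGC were then below 1.5. Cells in which no marker UMI was caught remain in these values, so the part of stroma cells in them was not tested.

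**Figure D3:**
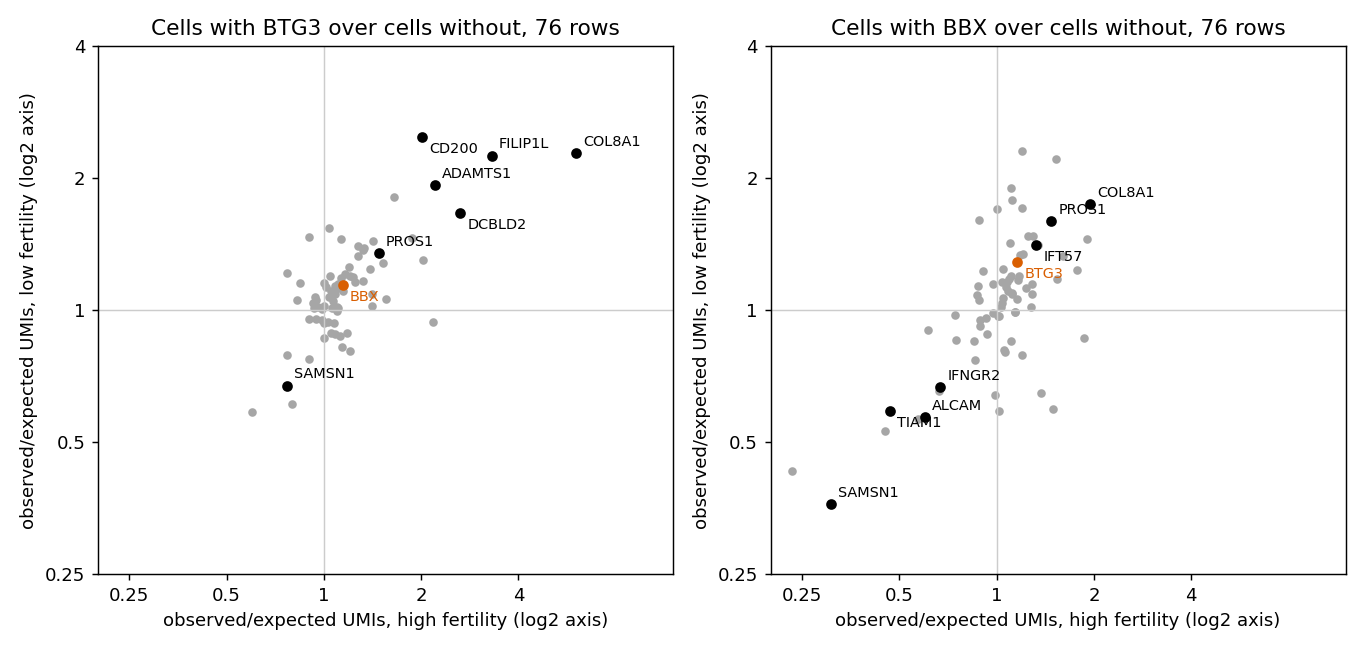
Observed over expected UMIs of 76 rows in cells with BTG3 (left) and in cells with BBX (right), at matched depth, in HGC (horizontal, log2 axis) and LGC (vertical, log2 axis); each point is 1 row. The other member (orange) lies within the cloud of rows in both panels, COL8A1 lies farthest right for BTG3, and SAMSN1 lies low in both.

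The reverse view, in which the cells are chosen by the other row, gives the level of the members themselves. It reads the same co-occurrence in the same cells. For rows picked for their excess in cells with BTG3, a BTG3 excess here is therefore no second result, and only its size is given. In the 270 HGC cells with COL8A1, BTG3 stood at 133 CPM, against 74.5 CPM in cells without; at matched depth this was 1.97 times the expected level (1.82 to 2.13). In the 83 LGC cells with COL8A1 it stood at 116 CPM, against 57.8 CPM without, 2.22 times the expected level (1.95 to 2.53). Of the 233 BTG3 UMIs in these LGC cells, 36 came from the 1 cell of 33050 UMIs, which held 7 COL8A1 UMIs. With that cell included, BTG3 was about 2-fold higher in cells with this collagen chain in both libraries.

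In cells with FILIP1L, BTG3 was 2.02 times (1.90 to 2.13) the expected level in the 713 HGC and 1.54 times (1.39 to 1.70) in the 228 LGC cells. In cells with DCBLD2, a transmembrane protein, it was 1.75 times in HGC and 1.53 times in LGC. In cells with ADAMTS1 it was 1.54 and 1.61 times, and in cells with CD200 1.49 and 1.40 times, in HGC and LGC. Cells with CCDC80, a secreted matrix protein, held 1.51 times (1.42 to 1.60) the expected BTG3 in HGC but 1.21 times (1.11 to 1.32) in LGC. Other rows rose more in all of these cells. Of 86 rows in HGC, BTG3 ranked 11th with COL8A1, 10th with FILIP1L, 15th with DCBLD2, 14th with ADAMTS1, 12th with CD200 and 19th with CCDC80. Of 77 rows in LGC it ranked 10th with FILIP1L, 9th with DCBLD2, 7th with ADAMTS1, 14th with CD200 and 26th with CCDC80. Over all rows scanned this way (at least 100 cells with the row, and 20 cells without it in every depth bin), the median BTG3 ratio was 1.11 over 79 rows in HGC and 1.07 over 60 rows in LGC. BTG3 reached 1.5 for 8.86% of them in HGC and 6.67% in LGC, and was 1.5-fold or more below the expected level for 1.27% and 3.33%. COL8A1 had too few cells in LGC to be among the rows scanned there.

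In the same cells BBX was 1.28 times (1.18 to 1.38) the expected level in HGC and 1.14 times (0.981 to 1.31) in LGC cells with COL8A1, and 0.974 (0.922 to 1.03) and 0.955 (0.882 to 1.03) times in HGC and LGC cells with CCDC80. Most of these rows were picked for their excess in cells with BTG3, so the order of the members in them is no result. Of the 59 rows scanned in both libraries, BTG3 had the higher ratio in both libraries for 29 rows and BBX for 13.

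**Figure D4:**
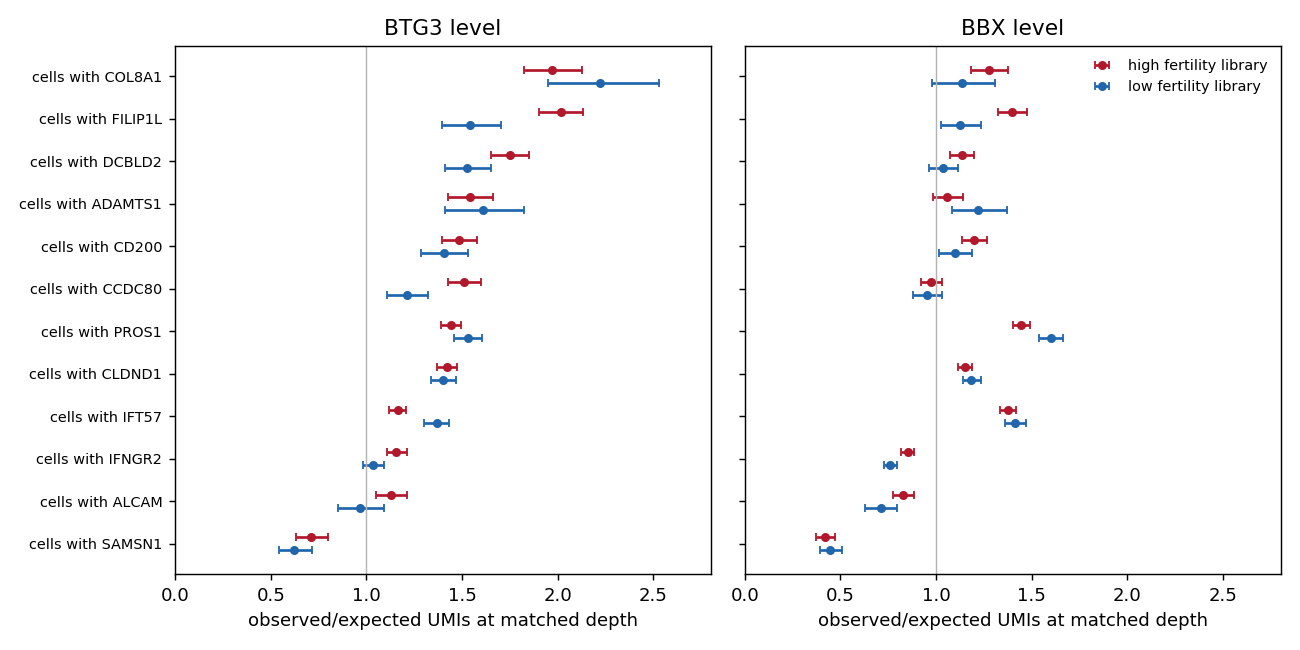
Level of BTG3 (left) and BBX (right) in cells with a UMI of 12 other genes, as observed over expected UMIs at matched depth (horizontal axes, exact 95% Poisson intervals of the observed UMIs), in HGC (red) and LGC (blue). BTG3 is highest in cells with COL8A1 or FILIP1L, BBX in cells with PROS1, and both are lowest in cells with SAMSN1.

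BBX was high in cells with PROS1 or IFT57. PROS1 encodes protein S, a plasma anticoagulant that also bridges dying cells to phagocytes. In the 2605 HGC cells with PROS1, BBX stood at 138 CPM, against 109 CPM in cells without, 1.44 times (1.40 to 1.49) the level expected at matched depth. In the 1312 LGC cells with PROS1 it stood at 113 CPM, against 77.2 CPM without, 1.60 times (1.54 to 1.66) the expected level. PROS1 gave the highest BBX ratio among the rows scanned in each library; BBX reached 1.5 for 0% of the rows in HGC and 1.67% in LGC. BTG3 was raised in the same cells by much the same factor, 1.44 in HGC and 1.53 in LGC. Other rows rose more in cells with PROS1. BBX ranked 13th of 86 rows in HGC and 9th of 77 in LGC there, and BTG3 14th in both.

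IFT57 encodes a subunit of the intraflagellar transport complex that builds the primary cilium. In cells with IFT57, BBX was 1.38 times (1.33 to 1.42) the expected level in HGC and 1.41 times (1.36 to 1.47) in LGC, where BTG3 was 1.16 and 1.37 times. Among the rows in these cells BBX ranked 17th of 86 in HGC and 13th of 77 in LGC, and BTG3 30th and 15th. COL8A1 was among the 2 of 76 rows at least 1.5-fold higher in cells with BBX in both libraries, where 9.3% of the rows reached that size in HGC and 11.7% in LGC.

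Cells with SAMSN1, an adaptor gene of blood cells, were low in both members. BTG3 stood at 58.0 CPM in the 583 HGC cells with SAMSN1, against 80.9 CPM in cells without, and at 40.3 CPM in the 366 LGC cells with it, against 62.8 CPM without. At matched depth this was 0.712 (0.633 to 0.798) of the expected level in HGC and 0.624 (0.542 to 0.716) in LGC. BBX stood lower still, at 0.419 (0.372 to 0.472) in HGC and 0.448 (0.392 to 0.509) in LGC. Many other rows were low there too: the median row was at 0.712 in HGC and 0.902 in LGC cells with SAMSN1. BTG3 ranked 44th of 86 rows in HGC and 50th of 77 in LGC cells with SAMSN1, and BBX 63rd and 58th. Of the other leukocyte markers, CD96 had 21 UMIs in each library and CD80 18 in HGC and 11 in LGC, too few to divide the cells.

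BBX was also low in cells with IFNGR2, the signalling chain of the receptor for interferon gamma, and with ALCAM, an adhesion molecule, where BTG3 was not. In cells with IFNGR2, BBX was 0.852 (0.818 to 0.887) of the expected level in HGC and 0.761 (0.726 to 0.797) in LGC, and BTG3 1.16 (1.11 to 1.21) and 1.03 (0.981 to 1.09). In cells with ALCAM, BBX was 0.829 and 0.711 and BTG3 1.13 and 0.966 of the expected level in HGC and LGC. Among the 76 rows, 7 were at least 1.5-fold lower in cells with BBX in both libraries, among them SAMSN1, ALCAM, TIAM1, an activator of Rac, and TMEM50B. Within a library, 9.3% of the rows were this low in HGC and 15.6% in LGC. In cells with BTG3 the 1 such row was ENSCHIG00000015902, which was low with BBX too; 1.16% of the rows were this low in HGC and 2.6% in LGC. All of these rows were singled out after their values were seen.

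Another measure of likeness ranked 38 rows with at least 500 UMIs in each library by the correlation over cells of their deviations from the depth expectation. All coefficients were small, and they serve here only to rank rows. For BTG3 the highest were ENSCHIG00000022046 (r = 0.13 over 7106 HGC and 0.19 over 3345 LGC cells), PROS1 (0.13 and 0.15), CLDND1, a claudin-like membrane protein (0.13 and 0.13), DCBLD2 (0.13 and 0.11) and ENSCHIG00000022648 (0.10 and 0.13). The lowest were ENSCHIG00000011680 (-0.17 and -0.13), SAMSN1 (-0.03 and -0.05) and NFKBIZ, an inducible partner of NF-kB in the nucleus (-0.02 and -0.01). ENSCHIG00000011680 is an abundant row at 3586 CPM in HGC and 3811 CPM in LGC.

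Among the highest for BBX were PROS1 (r = 0.14 in HGC and 0.23 in LGC), IFT57 (0.12 and 0.17), CCT8, a chaperonin subunit (0.10 and 0.13), and SON, a splicing cofactor (0.07 and 0.15). The lowest were SAMSN1 (-0.12 and -0.11), IFNGR2 (-0.10 and -0.12) and ENSCHIG00000012599 (-0.13 and -0.02). BTG3 and BBX had an r of 0.07 with each other in both libraries, beside median coefficients of 0.04 in HGC and 0.06 in LGC for BTG3, and 0.04 and 0.05 for BBX. PROS1 was among the highest rows for both members, and SAMSN1 among the 3 lowest for both.

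Other genes of growth control were few among the rows. Of 10 genes listed for the BTG family and its deadenylase partners BTG3 alone was a row, and of 10 HMG box genes BBX alone. Of 22 genes listed for replication and division 6 were rows and 3 had at least 100 UMIs: CIP2A, USP16 and CRYZL1. DONSON, which acts at replication forks, had 12 UMIs in HGC and 16 in LGC, and MIS18A, which acts at centromeres, 8 in each. CRYZL1 encodes a quinone oxidoreductase-like protein, which is not a known division factor, and stood at 44.2 CPM in HGC and 34.3 CPM in LGC, a ratio of 1.29 (1.21 to 1.37).

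CIP2A, an inhibitor of the phosphatase PP2A that is abundant in dividing cells, stood at 8.33 CPM in HGC and 6.24 CPM in LGC, a ratio of 1.33 (1.15 to 1.55). It was 1.41 times (1.25 to 1.57) as high in HGC and 1.09 times (0.931 to 1.27) in LGC cells with BTG3. With BBX it was 1.18 times (1.06 to 1.3) as high in HGC and 1.33 times (1.16 to 1.52) in LGC cells. USP16, a deubiquitinase of histone H2A, was 1.07 and 1.05 times as high in HGC and LGC cells with BTG3, and 1.16 and 1.17 times in those with BBX. Its ratio of HGC over LGC was 1.14 (1.08 to 1.19), so all 3 genes had intervals above 1. Of the rows with at least 10 CPM, a set that does not hold CIP2A, 65.9% had such an interval. No gene that marks S phase or mitosis, such as PCNA, TOP2A or MKI67, is among the rows analysed here.

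Of 11 nuclear regulators listed, 8 were rows, all with at least 100 UMIs over both libraries. Their median ratio of HGC over LGC was 1.00, below the ratios of both members. NFKBIZ, at 1.32 (1.28 to 1.37), had a ratio of the members' size, and SON, at 0.906 (0.880 to 0.933), lay below 1. SON was 1.11 and 1.12 times as high in HGC and LGC cells with BTG3 and 1.05 and 1.24 times in those with BBX, while NFKBIZ was 0.984 and 0.95 times as high in cells with BTG3 and 0.880 and 1.05 times in cells with BBX.

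ENSCHIG00000012599, whose deposited values were divided at 2.5, separated the members in HGC at that cut. In the 45.5% of the HGC cells with a value of 2.5 or more, BBX was 0.807 (0.780 to 0.833) and BTG3 1.13 (1.08 to 1.17) of the level expected from the other cells. In the 67.1% of the LGC cells above that bound, BBX was 0.938 (0.905 to 0.971) and BTG3 1.02 (0.974 to 1.06). The BTG3 value in HGC depended on the cut. In the 5248 HGC cells with 1 UMI or more of this row, BTG3 was 0.976 (0.946 to 1.01) and BBX 0.844 (0.822 to 0.865). The median row was at 1.03 in those cells, and the values at the cut of 2.5 were not set beside other rows.

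The members lie apart in the table, with 61 rows between them. In the RefSeq gene table of assembly ARS1.2 both are on chromosome 1, as are all 110 row symbols found there. A shared chromosome is therefore no trait of the pair. BTG3 lies beside the gene called C21orf91 in the deposited table and BBX beside CD47. In cells with C21orf91, BTG3 was 1.11 times (1.02 to 1.19) the expected level in HGC, close to its median of 1.11 over the rows scanned. In LGC it was 1.18 times (1.07 to 1.3) the expected level, above its median of 1.07. BBX was 0.940 (0.879 to 1.00) and 1.01 (0.927 to 1.09) in the same HGC and LGC cells. In cells with CD47, BBX was 1.13 times (1.04 to 1.22) the expected level in HGC and 0.874 times (0.802 to 0.951) in LGC, on opposite sides of 1, and BTG3 was 1.08 (0.981 to 1.19) and 1.06 (0.959 to 1.16).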

How the data were processed

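The authors deposited 1 table of genes by cells on a natural log scale. A value is ln(1 + 10000 × UMIs of the gene / UMIs of the cell); the smallest total at which all values of a cell are whole gave UMI counts, with 100% of 177610 values whole within 0.0001. Cell Ranger 2.2.0 is named, per the submitters' processing notes; the genome build, annotation and cell filter are not given in the sources used. The table used holds 154 complete rows; an incomplete last row was not used. Cells were assigned by column prefix and all were kept; no doublet caller was run. CPM are summed UMIs over summed totals. Ratios have exact binomial intervals. Levels at matched depth used 20 bins of equal cell number per library. Methods were tested on simulated data. Python 3.11.15, numpy 2.4.6, pandas 2.3.3 and scipy 1.17.1 were used.

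The members, lists and thresholds were chosen with earlier results of these data known. Named rows were the 5 highest and 3 lowest by the mean correlation of residuals (clipped at 10) with the same sign in both libraries, and members of the lists that are rows; other rows named were chosen after their values were seen. Alternatives changed the weighting, scaling, depth classes, minimum UMIs and cells kept. A row that the rule names for BBX is not reported here.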

Additional observations from a re-analysis of the deposited data

How the results depend on the processing

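The ratio of high over low for BTG3 was 1.17 divided by the median ratio of abundant rows, 1.25 without cells above 15000 UMIs and 1.24 without cells holding a leukocyte or stroma marker; for BBX it was 1.15 by that division, 1.15 without cells above 15000 UMIs and 1.17 standardised over the depth classes. Without marker cells the deep over shallow ratio in the high fertility library was 0.745 for BTG3 and 0.65 for BBX; by depth quartiles BBX was at 0.766 in the low. The share of cells with BBX, high minus low, was 2.78 percentage points at 1000 UMIs and 6.65 at 4000. BBX in cells with BTG3 was 1.24 with 2 UMIs required, 1.08 without cells above 15000 UMIs and 1.07 without marker cells in the high, and 1.09 without marker cells in the low fertility library. BTG3 in cells with BBX was 1.20 with 8 depth classes, 1.20 with 2 UMIs and 1.06 without marker cells in the high, and 1.35 with 2 UMIs, 1.17 without cells above 15000 UMIs and 1.15 without marker cells in the low. The 31 other such values stayed within the counting interval. For rows named beside a member, chosen after seeing the data, 120 of 222 recomputed values stayed within it, 101 left it and 1 turned: NFKBIZ in low fertility cells with BTG3, at 1.02 without cells above 15000 UMIs. The causes were not tested. No paired analysis was possible because the labels give 1 library per group.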
